A study of Homo sapiens with 6 samples.

Results

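The mRNAs described here code for 10 secreted proteins that promote or restrain the growth of blood vessels: VEGFA, VEGFB, VEGFC, PGF, PDGFA, PDGFB, ANGPTL4, FGF2, THBS1 and ANG. They were picked by gene name, by a rule that uses no threshold on their values but was set with earlier results of these data known, and all 10 were found among the 27605 genes measured. In the annotation that came with the values, all 10 were placed in the extracellular region, and 8 (not PDGFB and THBS1) carried the term angiogenesis. RNA sequencing was performed on cells labelled HepG2, a human hepatoma line, grown in DMEM with 10% fetal bovine serum and infected with lentivirus. The shNC group (3 libraries) carried a control hairpin and its genotype label was WT, and the shARHGEF2 group (3 libraries) carried a hairpin against ARHGEF2 and its genotype label was ARHGEF2 knockdown. ARHGEF2 is a guanine nucleotide exchange factor that activates the GTPase RhoA. The study asked whether this factor acts on tumor angiogenesis, and the comparison below asks whether the mRNAs of the secreted factors differed between both groups. The labels do not say whether the 3 libraries of a group came from separate cultures, or whether the shARHGEF2 libraries shared 1 hairpin, so that the p-values measure only the spread between these libraries.

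Tumor cells recruit vessels by releasing proteins that act on neighboring endothelial and mural cells. Ligands of the VEGF family bind receptor tyrosine kinases on endothelial cells, PDGF ligands recruit mural cells and fibroblasts, and FGF2 is held on heparan sulfate in the matrix. Vessel growth is also restrained by secreted inhibitors, of which THBS1 is the best known. Hypoxia-inducible factors and the unfolded protein response both raise transcription of VEGFA in many cell types.

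Levels are given in FPKM (fragments scaled to transcript length and to the mapped fragments of the library). The order of genes by FPKM depends on the transcript lengths assigned to them. The listed transcripts ran from 414 to 12167 bases for VEGFA and from 225 to 1380 bases for VEGFB. ARHGEF2 itself was 13, 14.4 and 13.9 FPKM in shNC replicates 1 to 3 and 4.25, 4 and 4.82 FPKM in shARHGEF2 replicates 1 to 3. It fell by 1.47 on the log2(FPKM + 1) scale (SE 0.11, limma adjusted p = 0.00244), in the direction of the labels. Its call was lost with the replicate number as a block (adjusted p = 0.0716) and with no filter on low genes (adjusted p = 0.0701), at the same change of -1.47. Between 9882 and 10587 genes reached 1 FPKM in a library, and the steps between low FPKM values put the depth at about 20140000 to 23200000 read pairs a library. Of 19 hepatocyte markers, 12 had a row and 10 of those stayed under 0.25 FPKM in every library, with AFP at 0.0703 FPKM or less, while VTN was 5.51 to 6.6 FPKM. The other 7 (ALB, APOB, APOH, TTR, TF, FGB and AHSG) are not analysed here. The hepatocyte markers that had a row were thus largely absent, although the methods state that the line was authenticated by short tandem repeat typing. Of 11 endothelial markers 7 stayed under 0.25 FPKM in every library, CDH5 and VWF among them, and the summed level of the list was 26.5 to 33.5 FPKM in shNC and 36.5 to 38.0 FPKM in shARHGEF2, most of it from EGFL7 (22.5 to 32.9 FPKM), with ESAM at 3.18 to 4.14 FPKM. PECAM1 was 0.539 to 0.606 FPKM in shNC and 0.76 to 0.854 FPKM in shARHGEF2. All 3 tested endothelial markers were higher in shARHGEF2 without overlap, where 20.5% of all genes tested had no overlap in either direction. By limma 0 of the 3 were called (0.277% of all genes tested), and 1 had an unadjusted p under 0.05 (13.7%). The sum of 8 fibroblast and mural markers was 44.7 to 57.9 and 44.8 to 51.0 FPKM, most of it from LUM (22.5 to 39.0 FPKM), followed by COL1A1, ACTA2, COL3A1 and DCN, with COL1A2 and RGS5 near 0. The part of these other-cell markers in the results was not tested. The libraries differed in how levels followed GC content: the rank correlation of a library's deviation with transcript GC content over 12231 genes ranged from -0.470 in shNC replicate 2 to 0.578 in shARHGEF2 replicate 1.

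ANGPTL4 and VEGFB were the most abundant of the secreted factors, and VEGFB and PGF were the members whose groups did not overlap. The promoters of these 3 genes are shown to set their sequence beside their levels. Each run holds the 250 bases before the RefSeq transcription start, on the strand of the gene (RefSeq, GRCh38.p14), with matches to a few short motifs in capitals. Searched on both strands were the hypoxia response cores ACGTG and GCGTG, the GC box GGGCGG bound by Sp1, the TATA box TATAAA and the AP-1 site TGACTCA. No motif overlapped another kind of motif in these windows, although neighboring GC boxes of VEGFB shared a base.
ANGPTL4, chr19:8363905-8364154, plus strand: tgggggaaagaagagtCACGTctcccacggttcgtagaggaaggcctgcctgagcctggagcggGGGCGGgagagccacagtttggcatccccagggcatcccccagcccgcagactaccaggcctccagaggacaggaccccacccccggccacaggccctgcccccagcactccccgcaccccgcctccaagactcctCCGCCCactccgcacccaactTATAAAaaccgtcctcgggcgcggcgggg
VEGFB, chr11:64234334-64234583, plus strand: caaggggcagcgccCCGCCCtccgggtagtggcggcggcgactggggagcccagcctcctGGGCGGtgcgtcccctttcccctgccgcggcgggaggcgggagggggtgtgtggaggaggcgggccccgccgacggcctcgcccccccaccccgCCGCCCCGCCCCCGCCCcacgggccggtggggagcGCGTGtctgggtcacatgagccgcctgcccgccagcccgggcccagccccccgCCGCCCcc
PGF, chr14:74955765-74956014, minus strand: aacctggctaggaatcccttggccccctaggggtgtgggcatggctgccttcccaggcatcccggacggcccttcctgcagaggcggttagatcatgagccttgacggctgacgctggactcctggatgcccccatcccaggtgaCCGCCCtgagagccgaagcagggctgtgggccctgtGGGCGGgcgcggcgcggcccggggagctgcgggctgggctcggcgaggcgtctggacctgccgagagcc
The ANGPTL4 run holds ACGTG (read as CACGT) at position -234, counted from the start, GC boxes at -186 and -50, and a TATA box at -29. The VEGFB run holds GCGTG at -61 and GC boxes at -236, -190, -96, -91, -85 and -8, and 82.8% of its bases are G or C. PGF has a second RefSeq start, and the run of the upstream start holds GC boxes at -105 and -69. Windows were found for 8 of the 10 members, all but VEGFA and PDGFB. A GC box lay in at least 1 window of all 8, beside 42.6% of all 35116 windows and 66.0% of the 12459 windows of the genes tested. GCGTG lay in windows of 7 of the 8 (44.7% of the windows of tested genes), and ACGTG in 1 (22.9%). TATAAA was found in 1 member (5.7% of the windows of tested genes), and TGACTCA in none (2.9%). ANG had 3 windows, PDGFA 4 and PGF 2, so these members had more chances of a match. A match describes letters only.

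The 10 mRNAs spanned levels from 0.593 FPKM, for PGF in 1 control library, to 176 FPKM, for ANGPTL4 in 1 shARHGEF2 library. ANGPTL4 had the highest mean over the 6 libraries (119 FPKM), above 97.1% of the genes tested, followed by VEGFB (85.7 FPKM, above 95.8%). PDGFB (15.3 FPKM) stood next, with no overlap with VEGFB. A middle group held ANG (9.84 FPKM), VEGFA (8.73 FPKM), FGF2 (7.9 FPKM) and VEGFC (7.62 FPKM), in which the ranges of neighbors overlapped. Below them, PDGFA (4.45 FPKM), THBS1 (1.89 FPKM) and PGF (0.885 FPKM) each lay under the one before it in all 6 libraries. The order of ANGPTL4 over VEGFB held in 5 of 6 libraries, as did that of PDGFB over ANG and that of VEGFA over FGF2, while ANG was above VEGFA, and FGF2 above VEGFC, in 4 of 6. The spread between libraries also differed among the factors, from a coefficient of variation of 5.96% for VEGFC to 28.7% for ANGPTL4 and 26.5% for ANG. In RNA from whole cultures, fewer cells that express a gene and less RNA per cell cannot be told apart.

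**Figure D1:**
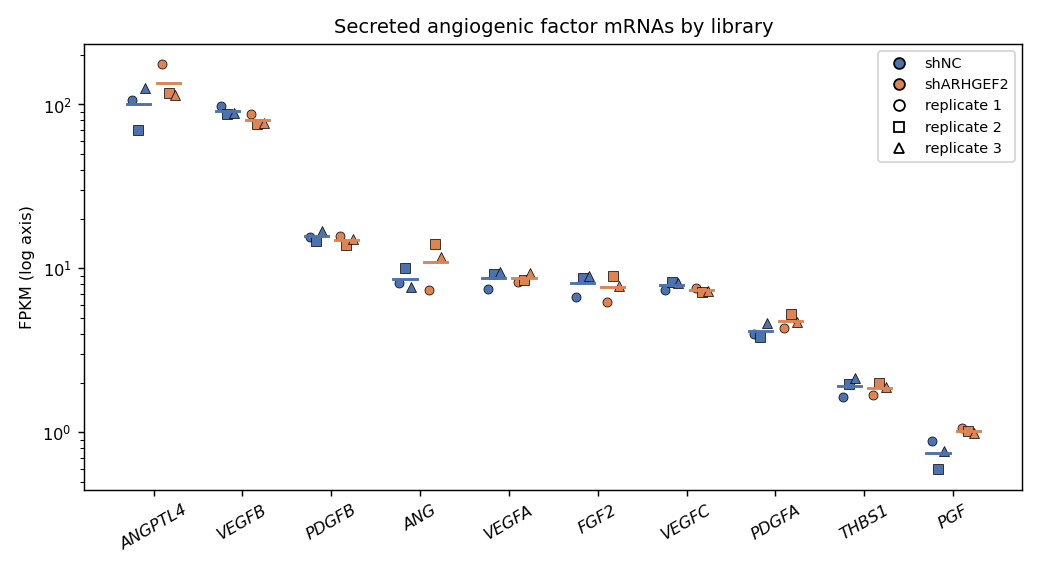
FPKM (log axis) of the 10 secreted factors in each library, in order of their mean, with shNC in blue and shARHGEF2 in orange. Symbols mark the replicate number and short lines the group means. ANGPTL4 and VEGFB lie between 70.1 and 176 FPKM and PGF between 0.593 and 1.06 FPKM, and the groups are apart only for VEGFB and PGF.

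None of the 10 mRNAs passed the test between shARHGEF2 and shNC. With limma on log2(FPKM + 1) and Benjamini-Hochberg adjustment over the 12291 genes tested, 0 of the 10 were called at an adjusted p under 0.05, where 0.277% of all genes tested were called (34 genes, 24 higher and 10 lower). That balance turned without shNC replicate 1 (5 higher, 8 lower), shARHGEF2 replicate 1 (4 and 8) or shARHGEF2 replicate 2 (6 and 9). It also turned with no filter on low genes (0 and 1). The balance was even without shARHGEF2 replicate 3 (3 and 3), and the replicate block called 0 genes. At an unadjusted p under 0.05 the count was also 0 of 10, beside 13.7% of all genes tested. This second count was 2 (VEGFB and ANG) without shARHGEF2 replicate 1, 1 (ANGPTL4) without shNC replicate 3, and 1 (VEGFB) with the replicate block, after quantile normalization or with the GC trend removed. The groups did not overlap for 2 of 10, beside 20.5% of all genes tested. Fitted changes ran from -0.19 to 0.44 on the log2 scale with 4 higher and 6 lower, and their median was -0.01, beside -0.002 over all genes tested. These values do not show that the mRNAs were equal in both groups, and the 95% intervals below give the differences that the data leave possible. With 3 libraries against 3 the exact permutation test cannot go below p = 0.1.

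**Figure D2:**
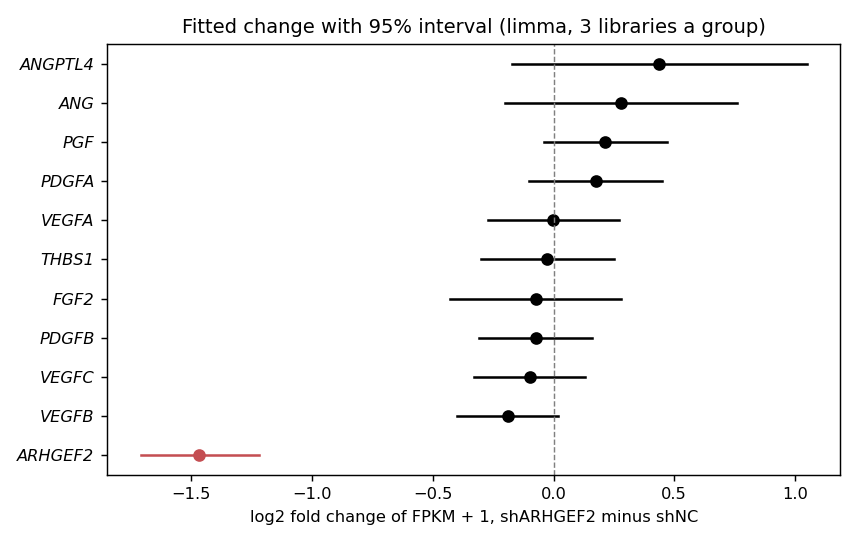
Fitted log2 fold change of FPKM + 1 (shARHGEF2 minus shNC) for the 10 factors and ARHGEF2, with lines for the 95% interval of limma, 3 libraries a group. The interval of each factor crosses 0, from -0.17 to 1.05 for ANGPTL4 and from -0.4 to 0.02 for VEGFB, while that of ARHGEF2 runs from -1.71 to -1.22.

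Fitted changes of the VEGF ligands ran from -0.19 to 0.21, and none of them was called. VEGFA (chromosome 6, 43770184 to 43786487, plus strand in GRCh38, from GENCODE 29), the ligand of the main angiogenic receptor KDR, was 7.53, 9.18 and 9.55 FPKM in the shNC libraries and 8.3, 8.47 and 9.38 FPKM in the shARHGEF2 libraries. The shARHGEF2 values lay inside the range of the controls. Group means were 8.75 ± 1.08 and 8.71 ± 0.581 FPKM (SD, n = 3 each), a ratio of 0.996, with a limma adjusted p of 0.999. The interval of the VEGFA difference was -0.27 to 0.27 on the log2(FPKM + 1) scale, or 0.829-fold to 1.2-fold.

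VEGFB (chromosome 11, 64234538 to 64238793, plus strand), a ligand of FLT1 known for its role in fatty acid handling and vessel survival, was 97.4, 87.3 and 89.3 FPKM in shNC and 87.1, 75.9 and 77.0 FPKM in shARHGEF2. The highest shARHGEF2 value lay just under the lowest control, so the groups were apart by a narrow margin. The means were 91.3 ± 5.34 and 80.0 ± 6.15 FPKM (SD, n = 3 each), and the fitted change was -0.19 (SE 0.09, 95% interval -0.4 to 0.02, limma adjusted p = 0.408, exact permutation p = 0.1). VEGFB had the smallest p of the 10, and it was not called. With the trend of each library on GC content removed, a setting chosen after seeing the data, the VEGFB change was -0.25 with a limma adjusted p of 0.137. The genes whose levels followed VEGFB most closely over the 6 libraries were TRIM28 (r = 0.995), ASPSCR1 (r = 0.991) and AAAS (r = 0.99), given as a description among the 10210 genes that averaged 1 FPKM or more, of which 48 exceeded r = 0.95. These correlations come from the same 6 libraries, which differed in estimated depth and in how levels followed GC content.

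VEGFC (chromosome 4, 176683538 to 176792727, minus strand), the ligand that drives lymphatic vessel growth through FLT4, ranged from 7.4 to 8.22 FPKM in shNC and from 7.14 to 7.6 FPKM in shARHGEF2. The ranges overlapped, and the fitted change was -0.10 (95% interval -0.33 to 0.13, limma adjusted p = 0.738). PGF (chromosome 14, 74941834 to 74955784, minus strand), placental growth factor, which binds FLT1 and not KDR, was 0.879, 0.593 and 0.77 FPKM in shNC and 1.06, 1.02 and 0.986 FPKM in shARHGEF2. All 3 shARHGEF2 values lay above the controls. The mean was 0.747 ± 0.145 against 1.02 ± 0.0383 FPKM (SD, n = 3 each), and the fitted change was 0.21 (SE 0.11, 95% interval -0.04 to 0.47, limma adjusted p = 0.438, exact permutation p = 0.1). PGF was the least abundant factor and stood for an estimated 47.3 to 81.2 read pairs if all came from its longest transcript of 3549 bases, the fewest of the 10. With the GC trend removed the PGF change was 0.16 (limma adjusted p = 0.314), and with a pseudocount of 0.1 it was 0.42, uncalled in both.

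Summed over VEGFA, VEGFB, VEGFC and PGF, the VEGF ligand mRNAs came to 109 ± 4.04 FPKM in shNC and 97.1 ± 6.12 FPKM in shARHGEF2 (SD, n = 3 each). VEGFB made up 81.4% to 86.0% of this sum, so that the sum largely follows VEGFB. VEGFA contributed 6.65% to 9.92%, VEGFC 6.54% to 7.81% and PGF 0.563% to 1.1%. These shares depend on the transcript lengths assigned to each gene.

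The PDGF chains lay in different parts of the order. PDGFA (chromosome 7, 497258 to 520296, minus strand), which codes for the A chain and acts through PDGFRA, was 3.97, 3.79 and 4.61 FPKM in shNC and 4.32, 5.3 and 4.74 FPKM in shARHGEF2. The lowest shARHGEF2 value lay under the highest control. The fitted change of PDGFA was 0.17 (95% interval -0.1 to 0.45, limma adjusted p = 0.585). PDGFB (chromosome 22, 39223359 to 39244751, minus strand), which codes for the B chain that recruits pericytes, ranged from 14.6 to 17 FPKM in shNC and from 13.8 to 15.8 FPKM in shARHGEF2, and its fitted change was -0.07 (95% interval -0.31 to 0.16, limma adjusted p = 0.822). The groups overlapped for both chains.

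ANGPTL4 (chromosome 19, 8363289 to 8374373, plus strand), an inhibitor of lipoprotein lipase with reported effects on vessels in both directions, was 107, 70.1 and 126 FPKM in shNC and 176, 118 and 115 FPKM in shARHGEF2. The means of 101 ± 28.6 and 136 ± 34.1 FPKM (SD, n = 3 each) gave a ratio of 1.34, the fitted change being 0.44 (SE 0.26, 95% interval -0.17 to 1.05, limma adjusted p = 0.513, exact permutation p = 0.4). It was the widest interval among the factors, from 0.887-fold to 2.07-fold. The lowest library was shNC replicate 2 and the highest shARHGEF2 replicate 1, which were also the libraries at both ends of the GC trend. The listed ANGPTL4 transcripts had a GC content of 64.0%, the highest of the 10. The part of GC content in these values was not tested. The change of ANGPTL4 was 0.20 without shNC replicate 2, 0.24 without shARHGEF2 replicate 1 and 0.62 without shNC replicate 3, and without the GC trend it was 0.38 (limma adjusted p = 0.386). RAB11B-AS1, which overlaps ANGPTL4 exons on the opposite strand, was 2.13 to 2.60 FPKM over all libraries.

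**Figure D3:**
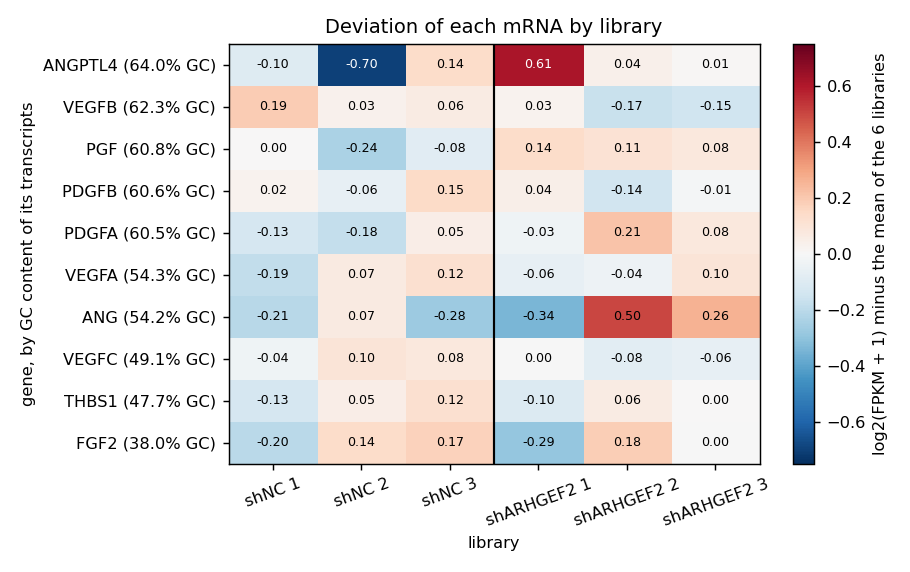
Log2(FPKM + 1) of each factor in each library minus its mean over the 6 libraries, with genes ordered by the GC content of their transcripts and a line between the shNC and shARHGEF2 libraries. ANGPTL4 deviates by -0.70 in shNC replicate 2 and by 0.61 in shARHGEF2 replicate 1, and in shARHGEF2 replicate 1 ANG and FGF2 are at their lowest, -0.34 and -0.29.

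Transcript GC content was above the median of the genes tested (51.2%) for 7 of the 10 factors. shNC replicate 2 was the lowest library for ANGPTL4, PGF and PDGFA, whose GC contents were 64.0%, 60.8% and 60.5%. shARHGEF2 replicate 1 was the highest library for ANGPTL4 and PGF, and the lowest for ANG (54.2%) and FGF2 (38.0%). VEGFB (62.3%) was highest in shNC replicate 1 and PDGFB (60.6%) in shNC replicate 3, and both were lowest in shARHGEF2 replicate 2. The part of GC content in these extremes was not tested.

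FGF2 (chromosome 4, 122826708 to 122898236, plus strand), a heparin-binding mitogen for endothelial cells, was 6.68, 8.71 and 8.94 FPKM in shNC and 6.22, 9.04 and 7.81 FPKM in shARHGEF2. Replicate 1 was the lowest library of each group, and the groups overlapped. The fitted change was -0.07 (SE 0.16, 95% interval -0.43 to 0.28, limma adjusted p = 0.892). FGF2 shares exon sequence with NUDT6, a gene on the opposite strand whose transcripts are known as FGF2 antisense. The library kit marks the strand, but the strand setting used for counting is not given in the sources used here. NUDT6, named after its values were seen, was 1.25, 1.25 and 1.58 FPKM in shNC and 2.29, 2.05 and 2.32 FPKM in shARHGEF2. Its groups did not overlap, and its fitted change of 0.45 (SE 0.12, 95% interval 0.18 to 0.72, limma adjusted p = 0.158) was not called.

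ANG (chromosome 14, 20684177 to 20698971, plus strand), angiogenin, a secreted ribonuclease that enters endothelial cells, was 8.15, 10.1 and 7.75 FPKM in shNC and 7.34, 14.0 and 11.7 FPKM in shARHGEF2. The shARHGEF2 group held both the lowest and the highest value. The means were 8.67 ± 1.25 and 11 ± 3.37 FPKM (SD, n = 3 each), with a fitted change of 0.28 (SE 0.21, 95% interval -0.2 to 0.76, limma adjusted p = 0.617, exact permutation p = 0.4). The change of ANG was 0.52 without shARHGEF2 replicate 1 and 0.10 without shARHGEF2 replicate 2, and it was called in neither fit. ANG shares promoters and exon sequence with RNASE4, another secreted ribonuclease on the same strand, so reads from the shared exons could be split between them in either way. RNASE4 was 2.47, 3.11 and 2.84 FPKM in shNC and 2.10, 5.74 and 4.90 FPKM in shARHGEF2, with its lowest value in shARHGEF2 replicate 1 and its highest in shARHGEF2 replicate 2, the same libraries as for ANG. AL163636.2, a further gene on that strand with overlapping exons, was listed at 0 in 4 libraries, at 0.388 FPKM in shNC replicate 3 and at 1.698 FPKM in shARHGEF2 replicate 1.

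**Figure D4:**
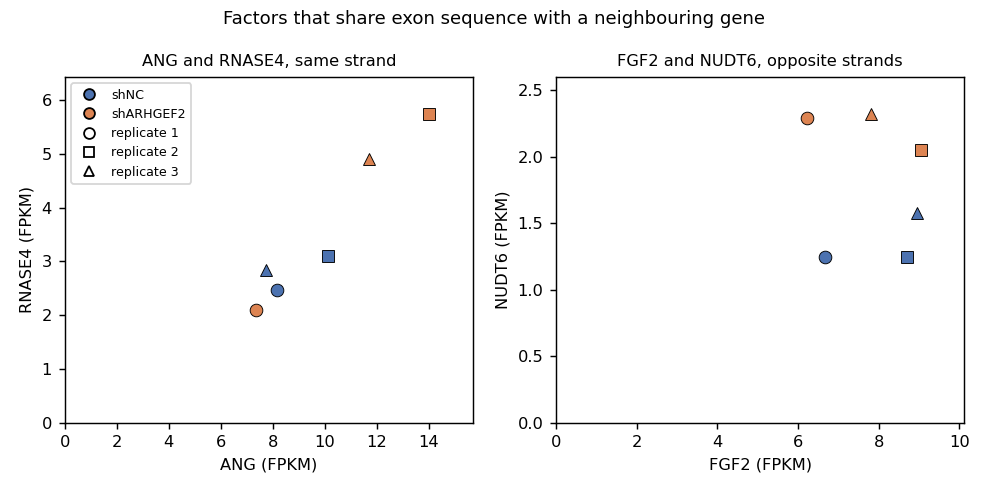
FPKM of ANG against RNASE4 (left) and of FGF2 against NUDT6 (right), 1 symbol a library, shNC in blue and shARHGEF2 in orange. ANG and RNASE4 are both highest in shARHGEF2 replicate 2, and NUDT6 lies above 2 FPKM in each shARHGEF2 library and under 1.6 in each control while FGF2 overlaps.

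THBS1 (chromosome 15, 39581079 to 39599466, plus strand), thrombospondin-1, an inhibitor that acts through CD36 and CD47, was the anti-angiogenic member. It was 1.64, 1.98 and 2.13 FPKM in shNC and 1.68, 2.01 and 1.89 FPKM in shARHGEF2. The shARHGEF2 values lay inside the control range. The fitted change of -0.03 (SE 0.12, 95% interval -0.3 to 0.25, limma adjusted p = 0.96) corresponds to 0.812-fold to 1.19-fold of FPKM + 1 at the ends of its interval.

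The other genes of these pathways were taken from 5 lists of 91 genes, of which 81 had a row and 56 were tested. These lists too were drawn up with earlier results known, so their counts are descriptions. None of the 56 was called by limma, where 0.277% of all genes tested were called. At an unadjusted p under 0.05 there were 11 higher and 2 lower, which is 13 of 56. Over all genes tested there were 996 higher and 682 lower, or 13.7%. The groups did not overlap for 16 of 56, beside 20.5% of all genes tested. The median change was 0.08 with 38 higher and 18 lower, beside -0.002 over all genes tested (6102 higher and 6189 lower). These counts were not adjusted for GC content.

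Related ligands held 10 tested genes, 6 higher and 4 lower, with a median of 0.04. ADM, adrenomedullin, a vasodilator peptide, was 12.9, 14.0 and 13.9 FPKM in shNC and 10.3, 9.82 and 9.64 FPKM in shARHGEF2, a fitted change of -0.42 (limma adjusted p = 0.126). CCN1, a matrix protein that binds integrins, was 68.6, 71.3 and 95.2 FPKM against 60.5, 59.8 and 59.6 FPKM (-0.37, limma adjusted p = 0.257). The groups did not overlap for either gene. MDK, the heparin-binding factor midkine, had a fitted change of 0.33 (limma adjusted p = 0.287), EGFL7 of 0.26 (limma adjusted p = 0.363), and GRN, the most abundant of the list, of 0.07.

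The other inhibitors held 5 tested genes, of which 4 were higher and 1 was lower. TIMP3, which inhibits metalloproteinases and blocks VEGFA at its receptor, was 28.2, 30.1 and 29.9 FPKM in shNC and 27.0, 26.7 and 26.6 FPKM in shARHGEF2 without overlap, yet its change of -0.13 was not called (limma adjusted p = 0.553). COL18A1, whose collagen gives rise to endostatin, had a fitted change of 0.01, VASH1 of 0.14 and THBS3 of 0.16.

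Of 15 receptors and co-receptors tested, 12 were higher and 3 lower, with a median of 0.12. The receptor FLT1 was at most 0.00397 FPKM in any library, and KDR is not analysed here. FGFR4 was 13.7, 11.9 and 16.4 FPKM in shNC and 21.3, 19.5 and 19.3 FPKM in shARHGEF2, a fitted change of 0.50 (95% interval 0.21 to 0.78, limma adjusted p = 0.148). FGFR3 was 8.18, 7.27 and 8.88 FPKM against 11.6, 11.1 and 10.9 FPKM (0.42, limma adjusted p = 0.148). The groups were apart for both receptors. ITGB5, an integrin chain, had a change of 0.28 (limma adjusted p = 0.204), while the abundant SDC4 and PLXNB2 had changes of 0.04 and 0.08. FGFR4 (63.5% GC) and FGFR3 (63.0%) were lowest in shNC replicate 2 and highest in shARHGEF2 replicate 1, the ends of the GC trend. ITGB5 (54.7%), SDC4 (48.8%) and PLXNB2 (62.5%) were lowest in shNC replicate 1. The part of GC content in these values was not tested.

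Among 11 tested genes of the list on processing and storage of the factors, 8 were higher and 3 lower, with a median of 0.17. TGFB1 was counted in this list although it is itself a growth factor, kept latent in the matrix. It was 112, 94.4 and 123 FPKM in shNC and 160, 146 and 143 FPKM in shARHGEF2 (0.45, limma adjusted p = 0.141). SULF2, which trims heparan sulfate, was 3.6 to 4.6 FPKM against 5.28 to 6.75 FPKM (0.45, limma adjusted p = 0.206). The groups did not overlap for either gene. FURIN, the convertase that cleaves the precursors of VEGFC and PDGF chains, had a change of 0.17, HSPG2 of 0.27 and GPC1 of 0.24. TGFB1 (61.4% GC), FURIN (62.0%) and GPC1 (65.6%) were lowest in shNC replicate 2 and highest in shARHGEF2 replicate 1. SULF2 (52.6%) and HSPG2 (63.5%) were lowest in shNC replicate 1. Here too the part of GC content was not tested.

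The regulators, 15 tested, were balanced at 8 higher and 7 lower, with a median of 0.02. XBP1, a transcription factor of the unfolded protein response, was 33.7, 33.2 and 37.5 FPKM in shNC and 55.2, 52.2 and 44.5 FPKM in shARHGEF2, a fitted change of 0.52 (SE 0.11, limma adjusted p = 0.114), the smallest adjusted p of the 56 genes. The XBP1 groups were apart, and the change was not called. The hypoxia-inducible factors HIF1A and EPAS1 had changes of -0.08 and -0.05 with overlapping groups. EGLN3, a hydroxylase whose gene responds to hypoxia, had a change of -0.30 (limma adjusted p = 0.481), and PPARA, which activates ANGPTL4 in liver, of 0.40 (limma adjusted p = 0.363) at levels of 0.245 to 1.15 FPKM.

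**Figure D5:**
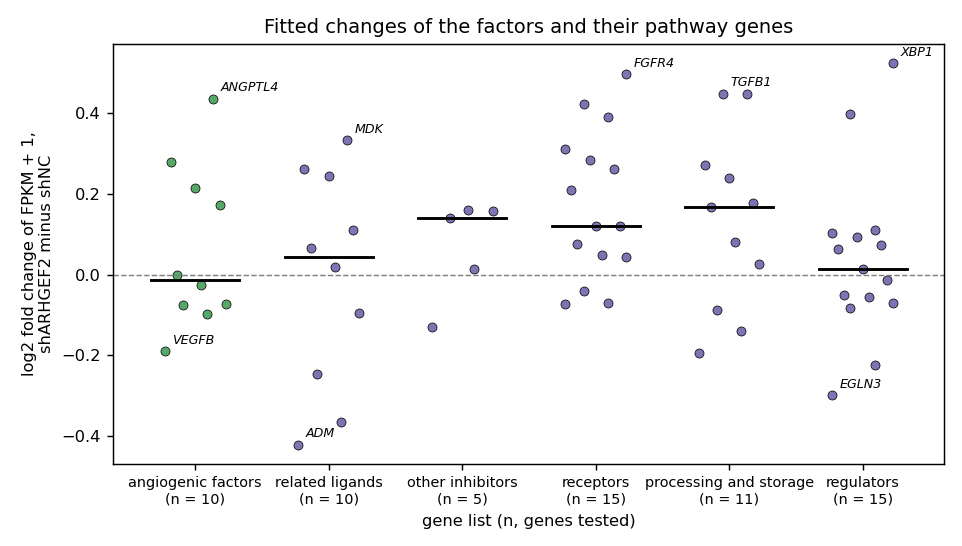
Fitted log2 fold change of FPKM + 1 (shARHGEF2 minus shNC) of each tested gene, for the 10 factors and the 5 lists of pathway genes, with the median of each list as a black line. The medians lie at -0.01 for the factors and between 0.02 and 0.17 for the lists. No gene shown was called, where 0.277% of all genes tested were called.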

How the data were processed

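Poly(A) RNA of 6 libraries labelled HepG2 was sequenced in pairs with molecular identifiers. The authors deposited FPKM per gene. Their processing notes name cutadapt 1.9, HISAT2 2.0.4, UMI-tools, StringTie 1.3.4d, DESeq2, edgeR and hg19, without roles. The listed transcripts matched GENCODE 29 for 94.7% (106543 of 112516), which gave GRCh38 positions, lengths and GC content. The columns of the authors' own fold changes, p-values and q-values were not used.

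The FPKM values were used as deposited. limma 3.58.1 (R 4.3.3, statmod 1.5.0; trend and robust variances) was run on log2(FPKM + 1) for the genes that averaged 0.5 FPKM or more, with Benjamini-Hochberg adjustment over 12291 genes and calls at an adjusted p under 0.05. Fold changes on this scale understate those of low genes. The methods read here state no test for the RNA sequencing. Exact permutation tests were two-sided. Only 35.1% to 37.6% of the values used lay within 0.1 of a whole read, where 20% of evenly spread values would, so depths are estimates and no count test was run. The fit was also run on simulated data with independent noise for each gene. Those data held no effect shared by the genes of a library, such as a GC trend, so the simulation does not cover such effects.

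The members and lists were chosen with earlier results of these data known. Named were all members, ARHGEF2 and, from each list, the genes called, the 3 most abundant and the 3 with the smallest p, marker genes that averaged 1 FPKM or more or lay near 0, and the 3 genes most like the member with the smallest p. Same-numbered libraries had residual correlations of 0.184, 0.159 and -0.105, and were not treated as pairs. Alternatives were another pseudocount (0.1), other filters, quantile-normalized values, a limma fit with neither trend nor robust variances, a replicate block, each library left out, and a GC trend removed by loess (span 0.3). Python 3.11.15, pandas 2.3.3, numpy 2.4.6, SciPy 1.17.1 and matplotlib 3.10.9 were used.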

Additional observations from a re-analysis of the deposited data

How the results depend on the processing

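None of the 10 factors and none of the 56 pathway genes was called by limma under any of the 13 alternatives. Of these, the GC setting was chosen after seeing the data. Few genes were called in any of these fits, from 0 of 12291 with the replicate block to 102 of 12291 without shNC replicate 3. The counts of 0 among the factors and pathway genes therefore say little about these genes. The lowest adjusted p of a factor was 0.137. In all, 122 of 129 factor values kept their direction. The sign of VEGFA turned without shNC replicate 2 (0.03) or 3 (0.06) and without shARHGEF2 replicate 1 (0.03) or 2 (0.02), in a range of -0.09 to 0.06. FGF2 turned without shARHGEF2 replicate 1 (0.06, range -0.19 to 0.06), and THBS1 without shNC replicate 3 (0.03) or shARHGEF2 replicate 1 (0.02, range -0.1 to 0.03). Leaving out 1 library gave 0.20 to 0.62 for ANGPTL4 and 0.10 to 0.52 for ANG.

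The count of genes called was less stable: 34 as reported, 39 with a pseudocount of 0.1, 54 with at least 1 FPKM in 3 or more libraries (PGF then untested), 63 without the GC trend, 19 after quantile normalization, 7 without trend or robust variances, and 1 with no filter. Leaving out 1 library gave 6 to 102, the highest without shNC replicate 3. The replicate block gave 0, with 1976 genes at an unadjusted p under 0.05, and ARHGEF2 then missed the threshold (adjusted p = 0.0716), as it did with no filter (adjusted p = 0.0701). The library numbers share no stated origin. The cause of these shifts was not tested. At the estimated depths PGF stood for the fewest read pairs of the 10.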
